A study of Mus musculus with 6 samples.

Results

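Lymphotoxin alpha, lymphotoxin beta, TNF and LIGHT (genes Lta, Ltb, Tnf and Tnfsf14) are ligands of the TNF superfamily, and Ltbr, Tnfrsf1a, Tnfrsf1b and Tnfrsf14 encode the receptors they engage. These 8 genes were taken by gene symbol from the 23185 named genes of an array study of group 2 innate lymphoid cells (ILC2s), lymphocytes that lack rearranged antigen receptors and make type 2 cytokines. Lta was selected on its measured rise in the arrays labelled Myc knockout over the controls, so its difference between the groups is described here with no test. The other 7 genes were added as its relatives and receptors.

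The cells were an ILC2 line from C57BL/6J mice, grown with IL-2 and IL-33, each at 10 ng/ml. All of them were transduced with a lentiviral CRISPR construct carrying GFP, and GFP-positive cells were sorted on day 6. The control group (3 Affymetrix arrays) received a non-targeting guide RNA, and the group labelled Myc knockout (3 arrays) a guide against Myc. The comparison asks which transcripts differ between these groups. Nothing in the labels ties the arrays to separate cultures, so the p-values cover the spread among these 6 samples alone, and that spread may be technical. The labels give neither the share of edited cells nor the age of the mice.

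TNF and lymphotoxin alpha are made as trimers. Soluble lymphotoxin alpha and TNF bind TNFR1 (Tnfrsf1a) and TNFR2 (Tnfrsf1b), whereas lymphotoxin alpha held at the membrane by lymphotoxin beta binds the lymphotoxin beta receptor (Ltbr) on stromal cells and drives the formation of lymph nodes. LIGHT binds the same receptor and also HVEM (Tnfrsf14), which has the inhibitory receptor BTLA as a further partner.

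Ltb, Tnf and Lta lie next to each other in that order on mouse chromosome 17, inside the major histocompatibility complex, and Tnfsf14 is elsewhere on that chromosome. All 8 members had a promoter entry in RefSeq (GRCm38.p6), and the 250 bases before each entry's start were searched on both strands for the E-box CACGTG, which MYC with its partner MAX can bind, for the TATA box TATAAA and for the NF-kappaB consensus motif. The Tnf and Ltb windows are shown because Tnf differed between the groups by more than 2-fold and its neighbour Ltb by 1.03-fold, and shorter stretches of Lta and Ltbr because they hold a match. Capitals mark the matches. The Tnf window is chr17:35202008-35202257 on the minus strand, that of Ltb chr17:35194257-35194506 on the plus strand, the Lta stretch chr17:35205501-35205530 on the minus strand and the Ltbr stretch chr6:125313993-125314022 on the minus strand.
Tnf: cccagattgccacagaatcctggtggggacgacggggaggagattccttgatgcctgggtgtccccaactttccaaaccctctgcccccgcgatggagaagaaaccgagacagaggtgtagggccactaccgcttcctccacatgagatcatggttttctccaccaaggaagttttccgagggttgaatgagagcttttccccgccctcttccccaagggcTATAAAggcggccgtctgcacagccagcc
Ltb: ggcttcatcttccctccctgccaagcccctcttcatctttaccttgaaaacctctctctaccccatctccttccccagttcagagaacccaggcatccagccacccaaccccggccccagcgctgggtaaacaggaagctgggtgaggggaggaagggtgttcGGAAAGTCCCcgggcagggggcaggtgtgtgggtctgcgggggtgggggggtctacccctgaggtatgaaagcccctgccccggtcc
Lta: gtgcagaagtgaTATAAAccatcactcttc
Ltbr: gcctgcagctctCACGTGctttcccggcca
In Tnf the TATA box lay 29 to 24 bases before the start, where such a box usually stands, and in Lta it lay 167 to 162 bases before the start given by the entry. The Lta entry's start is inside the annotated gene, as another transcript begins further upstream. Ltb had the NF-kappaB consensus match on the minus strand, 87 to 78 bases before its start, and Ltbr had the E-box 125 to 120 bases before its start. The windows of the other 4 members held no match. Of the 8 windows, 2 overlapped the annotated gene: that of Lta and that of a member not shown. Of 32851 RefSeq promoter windows of that length, 12.4% held the TATA box, 6.02% the E-box and 3.90% the NF-kappaB consensus motif. A match is a string of letters and was not measured as a bound site.

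All values below are log2 RMA values, which RMA makes from probe intensities after background correction and scaling between arrays; group values are means ± SD (n = 3 arrays), and differences, knockout-labelled arrays minus control, are given ± SE. A gene passed at limma's Benjamini-Hochberg adjusted p under 0.05 over all 23185 genes, two-sided. The array medians lay between 3.27 and 3.34 and the lower quartiles between 2.04 and 2.13; a gene near or below them is close to background. Levels of different genes are not compared, since each probe set has its own response. Myc itself went against its label: its values were 9.27, 9.33 and 9.39 in the controls, against 9.55, 9.79 and 9.73 in the knockout-labelled arrays (difference 0.36 ± 0.080, adjusted p = 0.127 in limma, exact two-sided permutation p = 0.1, the smallest that 3 against 3 arrays allow). An edit need not lower the mRNA, and every direction below rests on the labels.

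The cells carried RNA of most ILC2 markers. The mean level of the 12 ILC2 markers was 7.42 to 7.46 in the controls and 7.46 to 7.54 in the knockout-labelled arrays, with Gata3, Il7r, Il2ra, Icos, Id2, Il5 and Il13 well above the array medians and Thy1, Il17rb and Ptgdr2 near or below them. Of the 12, Il5, a type 2 cytokine gene, passed as higher (difference 0.49 ± 0.061, limma's adjusted p = 0.0386). Gata3, which encodes the transcription factor that defines ILC2s, and the IL-7 receptor gene Il7r were below the controls in all 3 knockout-labelled arrays without passing (−0.25 and −0.22, limma's adjusted p = 0.173 and 0.263). Il2ra, Icos and Il13 were above the controls in all 3 knockout-labelled arrays, also without passing. Their differences were 0.19, 0.16 and 0.23 (limma's adjusted p = 0.232, 0.270 and 0.325). Among markers of other cells that make lymphotoxin or TNF, the 7 measured of ILC3s and lymphoid tissue inducer cells had summed levels of 14.8 to 15.6 in the controls and 16.8 to 17.1 in the knockout-labelled arrays, all 7 with a positive difference and Il17a past the threshold. Their mean level was 2.11 to 2.45, below the array medians, and Il22, the cytokine gene that defines ILC3s, was at 0.77 and 0.80. Il17a was at 2.84 and 3.79 (limma's adjusted p = 0.0353) and Il17f at 3.23 and 3.56 (limma's adjusted p = 0.313). Both Il17a and Il17f stood above the array medians in each knockout-labelled array. T cell markers (8 measured) summed to 25.8 to 26.5 and 25.3 to 26.2, and 5 of the 8 lay below the array medians. Cd3e was at 2.15 and 1.98, while Cd3g was at 5.47 and 5.04 with no overlap of the groups (limma's adjusted p = 0.220), and Cd8a was at 4.73 and 4.93. B cell (6), myeloid (6), mast cell (6) and NK cell (6) markers summed to 13.6 to 14.0, 20.8 to 21.5, 11.7 to 11.9 and 21.4 to 22.4 in the controls and to 13.5 to 14.2, 19.8 to 20.6, 11.6 to 12.3 and 22.4 to 22.8 in the knockout-labelled arrays. The myeloid marker Itgam was at 6.61 ± 0.13 and 5.99 ± 0.15 (limma's adjusted p = 0.0767), while Csf1r and Adgre1 stood at 2.24 and 1.66 in the controls. Of the NK cell markers, Prf1 was at 7.40 and 7.49 and Gzma at 6.52 and 6.85. Gzma was higher in each knockout-labelled array than in any control without passing (limma's adjusted p = 0.216). Of the 6 NK cell markers 3 lay below the array medians, among them Ncr1 at 1.82 and 2.04. The part of these cell types in the results was not tested, and in bulk RNA fewer cells of a type and less RNA per cell cannot be told apart.

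Lta and Tnf, whose soluble products bind the TNF receptors, had higher values in each knockout-labelled array than in any control, but Tnf did not pass the test and Lta was selected for this difference. The other ligands and the 4 receptors had smaller differences. Lta and Tnf had more than 2-fold differences, while the largest among the other 6 members was 1.14-fold. Of the 7 members other than Lta, 0 passed as higher and 0 as lower over all genes; 59 of all genes (0.254%) passed as higher and 46 (0.198%) as lower. At an unadjusted p under 0.05 in limma, 1 of the 7 was higher (Tnf) and 1 lower (Tnfsf14), beside 6.97% and 7.91% of all genes. The groups did not overlap for 3 of the 7 (Tnf, Tnfsf14 and Tnfrsf1b), beside 19.8% of all genes in either direction. The median difference of the 7 was 0.041, beside 0.0077 over all genes.

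**Figure D1:**
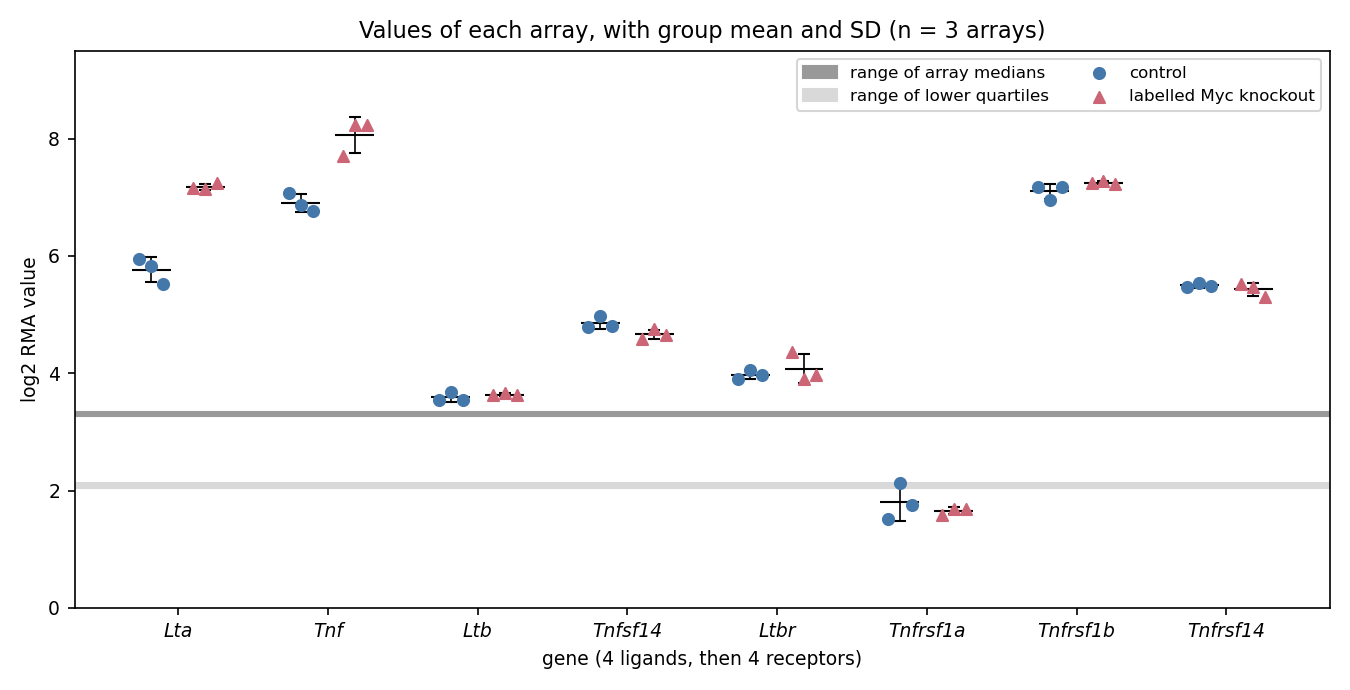
Log2 RMA value of each array for the 4 ligand genes and the 4 receptor genes; circles are control arrays, triangles arrays labelled Myc knockout, horizontal lines group means, bars SD (n = 3), and the grey bands the range of the array medians and of the lower quartiles over the 6 arrays. The groups stand clearly apart for Lta and Tnf, while Tnfrsf1a lies near or below the lower quartiles.

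Lta, the gene of lymphotoxin alpha, had values of 5.95, 5.82 and 5.53 in the controls, against 7.16, 7.14 and 7.24 in the knockout-labelled arrays. The lowest knockout-labelled array stood 1.20 above the highest control, and the knockout-labelled arrays were closer to each other than the controls were. The means were 5.76 ± 0.22 and 7.18 ± 0.051, a difference of 1.42 ± 0.11 or 2.67-fold, the 20th largest positive difference among the 23185 genes. With each array left out in turn the difference lay between 1.30 (without control replicate 3) and 1.51 (without control replicate 1).

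Tnf, the gene of the inflammatory cytokine TNF, had values of 7.07, 6.87 and 6.78 in the controls, against 7.71, 8.23 and 8.24 in the knockout-labelled arrays. The groups did not overlap, with a gap of 0.63, and replicate 1 of the knockout-labelled arrays was the lowest of its group. The means were 6.91 ± 0.15 and 8.06 ± 0.31. The difference of 1.15 ± 0.16, or 2.22-fold (95% confidence interval 1.70 to 2.91), did not pass over all genes by a narrow margin, with limma's adjusted p = 0.0518 and an unadjusted p of 0.000255. In size it was the 35th largest positive difference of all genes. The side of the threshold changed with the processing: under an intensity trend in the prior variance limma's adjusted p was 0.0228, with array weights 0.0394, under median centring 0.0485, under cyclic loess 0.0364 and after a filter on dim genes (mean level under the median) 0.0157. It was 0.0548 with a robust prior variance and 0.0533 over all probe sets. With an array left out it ranged from 0.0686 (without knockout-labelled replicate 1) to 0.217 (without control replicate 3), with differences of 1.33 and 1.09.

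**Figure D2:**
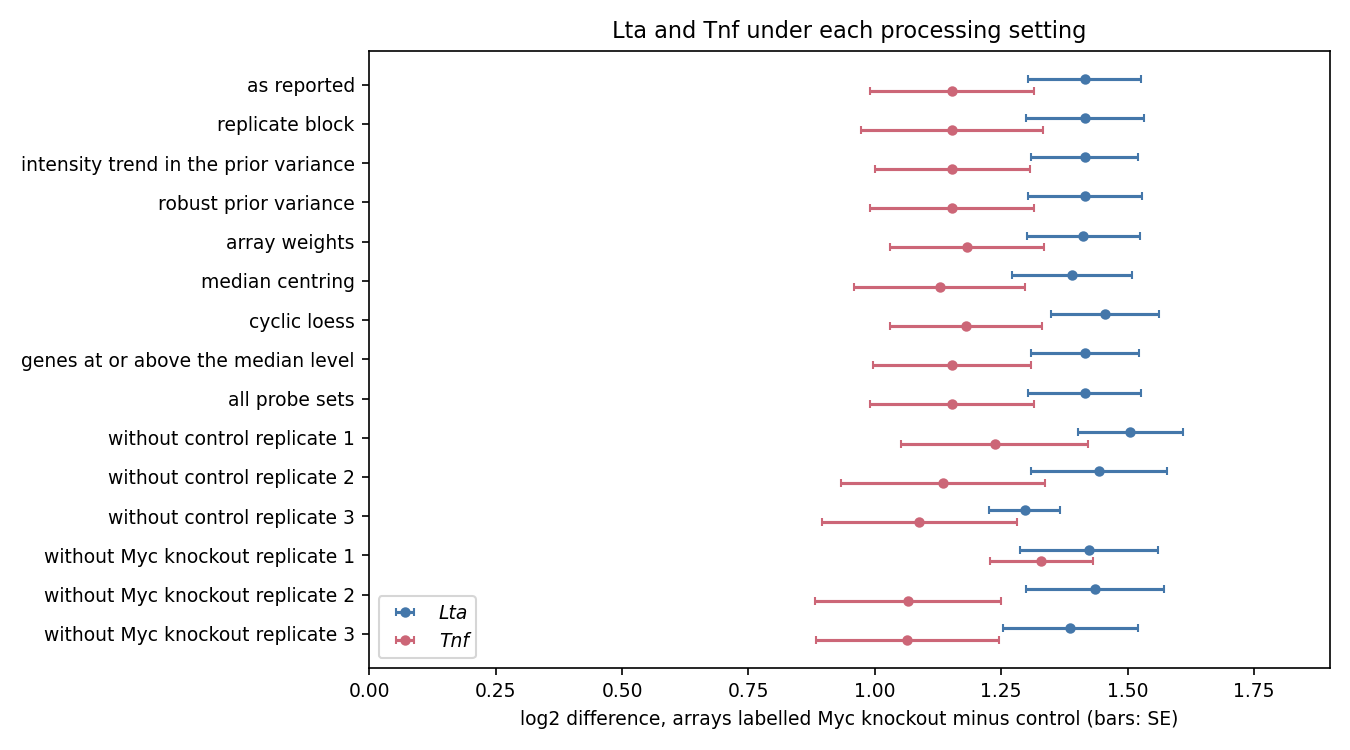
Log2 difference of Lta and Tnf, arrays labelled Myc knockout minus control, as reported and under each other processing setting or with an array left out; points are differences and bars SE. Lta stays between 1.30 and 1.51 and Tnf between 1.06 and 1.33.

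Ltb, whose product anchors lymphotoxin alpha to the membrane, was at 3.55, 3.69 and 3.55 in the controls, against 3.62, 3.66 and 3.62 in the knockout-labelled arrays. All 6 values were just above the array medians, the groups overlapped, and 2 pairs of arrays had the same deposited value to every decimal. The difference was 0.041 ± 0.062, or 1.03-fold (95% confidence interval 0.93 to 1.14, limma's adjusted p = 0.790). With each array left out in turn it ranged from 0.017 (without control replicate 1 or 3) to 0.087 (without control replicate 2). At this dim signal the arrays limit what a difference can show.

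Tnfsf14, the gene of LIGHT, was at 4.79, 4.97 and 4.80 in the controls, against 4.59, 4.75 and 4.65 in the knockout-labelled arrays. The knockout-labelled arrays were all lower, by a gap of 0.044. The difference of −0.19 ± 0.076 did not pass (limma's adjusted p = 0.316, unadjusted p = 0.0426).

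The 4 receptor genes had differences between −0.15 and 0.15. Tnfrsf1b, the gene of TNFR2, which binds TNF and soluble lymphotoxin alpha and is found mainly on blood and immune cells, was at 7.17, 6.96 and 7.18 in the controls, against 7.25, 7.28 and 7.23 in the knockout-labelled arrays. Its groups did not overlap, by a gap of 0.043, and control replicate 2 was the lowest array. The difference was 0.15 ± 0.076 (1.11-fold, 95% confidence interval 0.98 to 1.26, limma's adjusted p = 0.411), and without control replicate 2 it was 0.077.

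Tnfrsf1a, the gene of the death domain receptor TNFR1, was at 1.52, 2.13 and 1.75 in the controls, against 1.58, 1.69 and 1.69 in the knockout-labelled arrays. These values lie near or below the lower quartiles of the arrays, so the array gives little more than background for TNFR1, and the groups overlapped. The difference of −0.15 ± 0.15 (limma's adjusted p = 0.680) cannot show a lack of change. Without control replicate 2 it was 0.020.

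Ltbr, the receptor gene for membrane lymphotoxin and LIGHT, was at 3.90, 4.06 and 3.97 in the controls, against 4.37, 3.90 and 3.97 in the knockout-labelled arrays. The groups overlapped, and 2 pairs of arrays across the groups had equal deposited values. The difference was 0.10 ± 0.13 (95% confidence interval of the fold 0.87 to 1.33, limma's adjusted p = 0.742), and it rested on knockout-labelled replicate 1, without which it was −0.042. Ltbr is the member whose window, shown above, held the E-box.

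Tnfrsf14, the gene of HVEM, was at 5.46, 5.54 and 5.49 in the controls, against 5.52, 5.47 and 5.30 in the knockout-labelled arrays. The groups overlapped, and the difference was −0.066 ± 0.074 (95% confidence interval of the fold 0.84 to 1.08, limma's adjusted p = 0.704). It was −0.0029 without knockout-labelled replicate 3 and −0.11 without knockout-labelled replicate 1. Its partner genes Btla, which encodes an inhibitory receptor of lymphocytes, and Cd160 stood below the array medians: Btla was at 2.01 in the controls and 2.04 in the knockout-labelled arrays, and Cd160 at 2.51 and 2.44.

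The coding neighbours of the ligand cluster had small differences. Among the 5 nearest measured coding genes on each side, 0 of 10 passed in either direction, and their differences ran from −0.22 (Atp6v1g2, a subunit gene of the proton pump V-ATPase) to 0.25 (Aif1, a gene of macrophages), with a median of −0.071. Nfkbil1, next to Lta, differed by −0.13 ± 0.094, and Lst1, next to Ltb on the other side, by −0.077 ± 0.17. Lst1, Apom and Aif1, at 1.74, 1.92 and 2.66 in the controls, lay below the array medians and cannot show a lack of change. Bright neighbours gave narrow errors: Ddx39b, an RNA helicase gene, differed by 0.084 ± 0.061, Prrc2a by −0.074 ± 0.071 and the class I histocompatibility gene H2-D1 by −0.14 ± 0.072. The pattern along the chromosome was thus Ltb at 0.041, Tnf at 1.15, Lta at 1.42 and Nfkbil1 at −0.13. Ltbr and Tnfrsf1a also lie close together, on chromosome 6, with Scnn1a between them (−0.00089 ± 0.064); of their 10 neighbours 0 passed, and the differences ran from −0.27 (Vamp1) to 0.23 (Kcna5). Cd27, a further TNF receptor family gene among these neighbours, was listed at 1.69 in all 6 arrays. Scnn1a, at 2.75 in both groups, Plekhg6, Vwf, Ano2 and Kcna5 also lay below the array medians and cannot show a lack of change. Cd9, at 3.16 in the controls and 3.30 in the knockout-labelled arrays, lay near them.

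**Figure D3:**
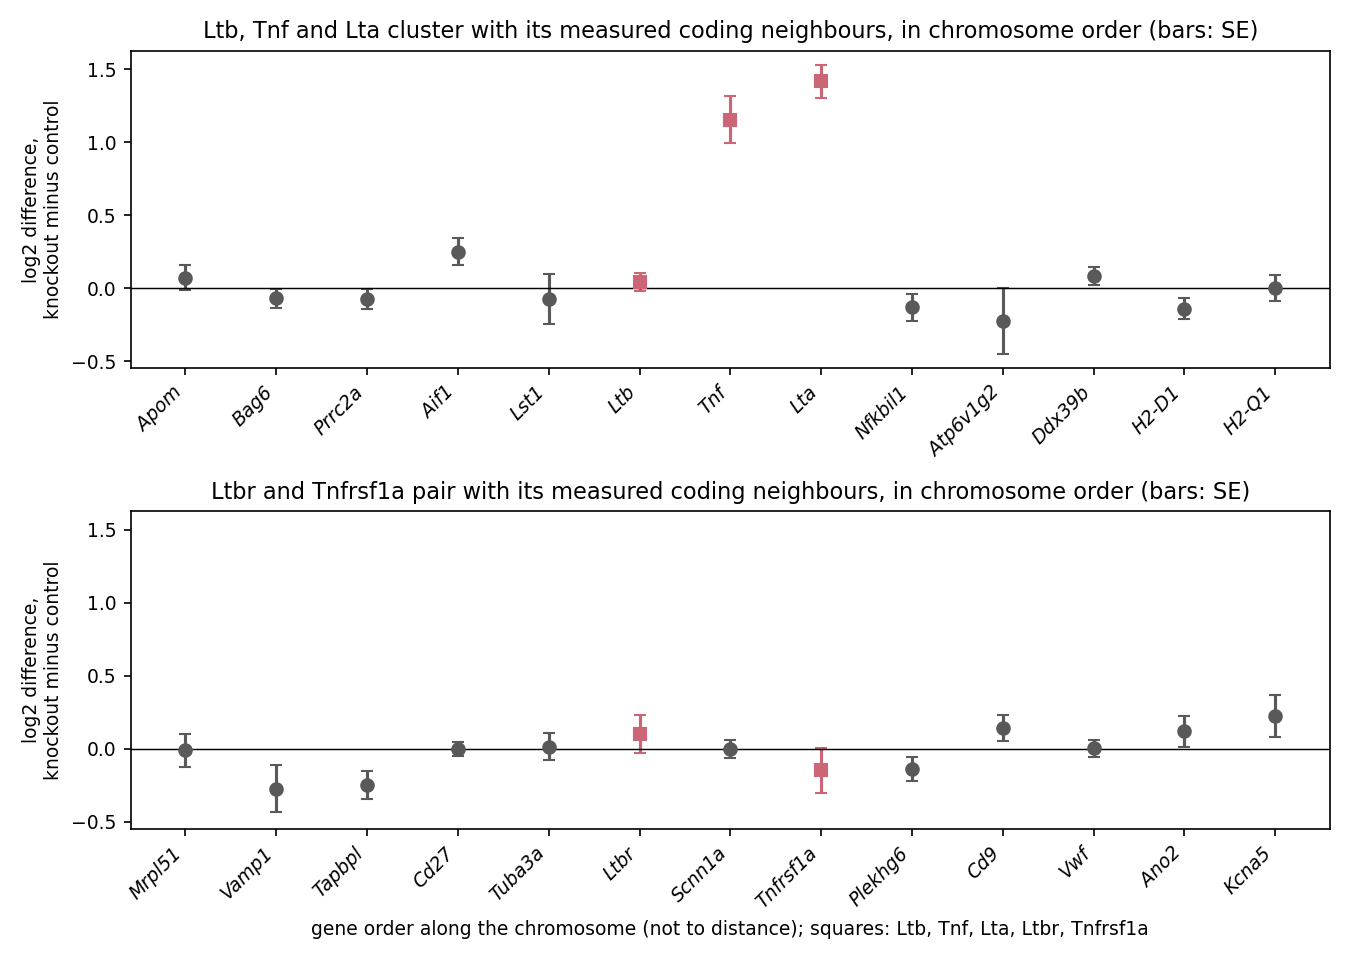
Log2 difference, arrays labelled Myc knockout minus control, of the Ltb, Tnf and Lta cluster (upper panel) and of the Ltbr and Tnfrsf1a pair (lower panel) with the 5 nearest measured coding genes on each side, in chromosome order and not to distance; squares are the members named, circles the neighbours, bars SE. Tnf at 1.15 and Lta at 1.42 stand above all their neighbours, which lie between −0.22 and 0.25.

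The genes whose profile over the 6 arrays was most like that of Lta were Atp6v0d2, Enam, Adamts1, Hamp and Il9. Likeness was the root mean square distance between log2 values centred on each gene's mean, among 10449 coding genes whose mean was at least the median level. The distances were 0.087, 0.13, 0.17, 0.17 and 0.19, and the median over those genes was 0.74. Tnf came next, as number 6, at 0.22. Atp6v0d2, a V-ATPase subunit gene, had values of 5.27, 5.07 and 4.83 in the controls, against 6.65, 6.59 and 6.52 in the knockout-labelled arrays. The order among the controls was that of Lta, but the order among the knockout-labelled arrays was not. There replicate 3 was the lowest for Atp6v0d2 and the highest for Lta. Such a ranking picks genes with a difference of like size and says no more.

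Genes that act on the ligands, with the receptors or downstream of them were then taken from 8 lists with 99 genes, of which 92 were measured. Over all genes 0 of the 92 rose and 1, Cxcl13, fell, beside the 0.254% and 0.198% of all genes. At an unadjusted p under 0.05 in limma, 6 had higher and 15 (16.3%) had lower values, beside 6.97% and 7.91% of all genes, and the median difference was −0.0100, beside 0.0077 over all genes. The lists hold mostly brighter genes, as 73 of the 92 stayed after the filter on dim genes. Of the 11593 genes left by that filter, 992 were higher and 1795 lower at that unadjusted p, with a median difference of −0.030. The shares over all genes are thus not a like background for these lists.

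**Figure D4:**
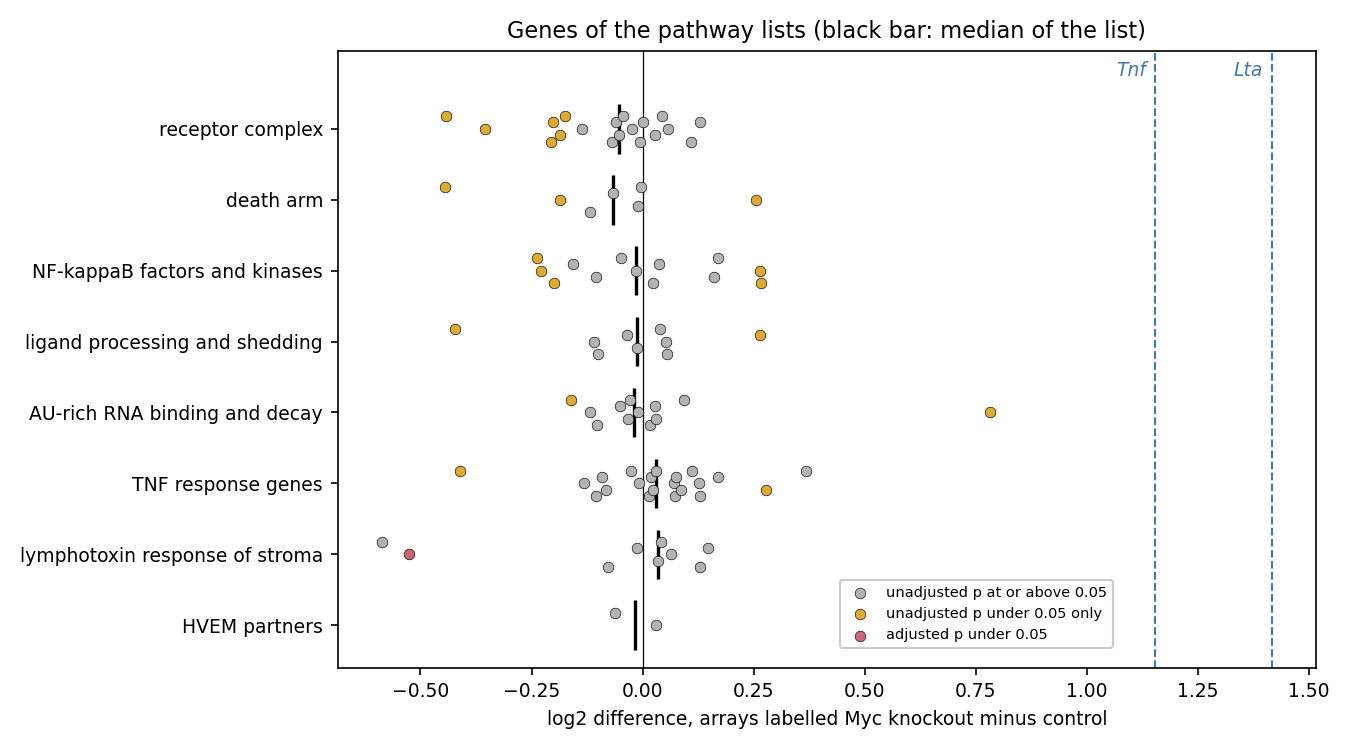
Log2 difference, arrays labelled Myc knockout minus control, of each measured gene in the 8 pathway lists, with vertical jitter; black bars are list medians, colours give limma's adjusted and unadjusted p, and dashed lines mark Tnf (1.15) and Lta (1.42). Cxcl13 is the only gene past the adjusted threshold, and Zfp36 at 0.78 lies nearest to the ligands.

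The complex that assembles on TNFR1 contains the adaptors TRADD and TRAF2, the ubiquitin ligases cIAP1 and LUBAC and the kinase complex they recruit. Of 19 measured genes of this complex, 0 passed, 13 had negative differences and the median was −0.053. At an unadjusted p under 0.05 in limma 6 were lower (31.6% of the list, beside 7.91% of all genes) and 0 higher. No gene of this list lay below the array medians, and after the filter on dim genes 1795 of 11593 genes were lower. The contrast with 7.91% is thus larger than one with genes of like level. Birc2, the gene of cIAP1, was at 5.90, 5.95 and 6.21 in the controls, against 5.45, 5.51 and 5.77 in the knockout-labelled arrays (difference −0.44 ± 0.12, limma's adjusted p = 0.178). All 3 knockout-labelled arrays were below all controls. Tab1, Tradd, the LUBAC subunit genes Rbck1 and Sharpin, and Traf2 differed by −0.35, −0.21, −0.17, −0.20 and −0.19, with limma's adjusted p between 0.246 and 0.311. Traf1, Birc3 and Tnfaip3, which encode an adaptor, a ubiquitin ligase and the feedback inhibitor A20 and are themselves induced by TNF in many cells, differed by 0.058 ± 0.069, −0.023 ± 0.068 and −0.043 ± 0.091.

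In the arm that leads from TNFR1 to cell death, 0 of 7 measured genes passed, with a median of −0.067. Cflar, which encodes the caspase-8 inhibitor c-FLIP, was at 5.70, 5.57 and 5.82 in the controls, against 5.37, 5.12 and 5.24 in the knockout-labelled arrays. The groups did not overlap, and the difference was −0.45 ± 0.094 (limma's adjusted p = 0.114; 0.0426 after the filter on dim genes, where Cflar passed). Casp8, the gene of caspase-8 itself, differed the other way, by 0.25 ± 0.075 (limma's adjusted p = 0.208), and Xiap, a caspase inhibitor gene, by −0.19 ± 0.070 (0.297).

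Among 13 measured NF-kappaB factors, inhibitors and kinases 0 passed, 2 had higher and 3 (23.1%) had lower values at an unadjusted p under 0.05 in limma, beside 6.97% and 7.91% of all genes, and the median was −0.014. In this list too no gene lay below the array medians, and after the filter on dim genes 1795 of 11593 genes were lower. Map3k14, the gene of NIK, the kinase that carries the lymphotoxin beta receptor signal, had the smallest p, with 4.44 ± 0.14 in controls and 4.71 ± 0.099 in the knockout-labelled arrays (difference 0.27 ± 0.091, limma's adjusted p = 0.261). Nfkb2 and Relb, whose products NIK activates, differed by 0.036 ± 0.073 and −0.049 ± 0.060. Nfkbia, a feedback inhibitor gene that NF-kappaB induces, was at 9.69 ± 0.069 and 9.53 ± 0.10 and did not pass (limma's adjusted p = 0.387).

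TNF is released from the membrane by the protease ADAM17 and its RNA is short-lived. Of 9 genes for processing and shedding 0 passed (median −0.013). Adam17 differed by −0.013 ± 0.052, Rhbdf2, whose product carries ADAM17 to the surface, by −0.10 ± 0.084, and Furin, a proprotein convertase that activates ADAM17, by 0.26 ± 0.065 (10.32 ± 0.047 to 10.59 ± 0.078, limma's adjusted p = 0.155; 0.0461 under an intensity trend, where Furin passed). Of 12 genes for proteins that bind AU-rich RNA or decay cytokine RNA 0 passed (median −0.019). Zfp36, the gene of tristetraprolin, which binds Tnf RNA and speeds its decay, was at 7.96, 7.83 and 7.78 in the controls, against 7.91, 8.86 and 9.14 in the knockout-labelled arrays. The groups overlapped, since knockout-labelled replicate 1 lay among the controls, and this was also the array with the lowest Tnf value of its group. The difference was 0.78 ± 0.30 (limma's adjusted p = 0.301). Zc3h12a, the gene of the RNase Regnase-1, differed by −0.16 ± 0.064 (limma's adjusted p = 0.314).

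Genes that TNF induces in many cells had differences of both signs. Of 21 measured 0 passed, 14 had positive and 7 negative differences, and the median was 0.029. Gadd45b, a stress gene, had the smallest p, at 7.91, 7.82 and 8.05 in the controls, against 7.60, 7.54 and 7.41 in the knockout-labelled arrays (difference −0.41 ± 0.085, limma's adjusted p = 0.111; 0.0408 after the filter on dim genes, where it passed). All its knockout-labelled arrays were below all controls. The largest positive difference was that of the chemokine gene Cxcl2, at 0.37 ± 0.15 with overlapping groups (limma's adjusted p = 0.338). Sod2, the mitochondrial superoxide dismutase gene, differed by 0.28 ± 0.083 (limma's adjusted p = 0.214) and the adhesion molecule gene Icam1 by −0.027 ± 0.074. In this list 10 genes lay below the array medians and cannot show a lack of change.

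Cxcl13, the B cell chemokine gene that lymphotoxin induces in lymphoid stroma, fell in the knockout-labelled arrays. Its values were 8.23, 8.29 and 8.31 in the controls, against 7.73, 7.71 and 7.81 in the knockout-labelled arrays. The groups did not overlap, and the difference of −0.53 ± 0.058, a 1.44-fold fall, passed the threshold (limma's adjusted p = 0.0298). None of the other 8 measured genes of the lymphotoxin response of stroma passed, and the median of all 9 was 0.034. Most of the others, such as Ccl19, Madcam1 and Cxcl12 at 2.79, 3.01 and 2.64 in the controls, lay below the array medians. The 7 markers of stroma and endothelium summed to 27.3 to 27.9 in the controls and 27.2 to 28.8 in the knockout-labelled arrays, and 4 of them, among them Col1a2, Pdgfra and Pdgfrb at 3.02, 2.10 and 2.45 in the controls, lay below the array medians. The other 3 were Acta2 at 4.35 and 4.29, Col1a1 at 3.45 and 3.65, and Pecam1, an adhesion molecule gene of endothelium that leukocytes also express, at 9.41 and 9.65. Col1a1 and Pecam1 were higher in each knockout-labelled array than in any control without passing (limma's adjusted p = 0.249 and 0.122), and their part in the result was not tested. With a replicate block or with any array left out, the call of Cxcl13 was lost, as were nearly all calls among all genes.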

How the data were processed

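Total RNA of 6 samples was measured on Affymetrix arrays. The authors deposited log2 values made with RMA, and limma 3.14.4 is also named, per the submitters' processing notes; the array version, probe set definition and build are not stated there. RMA scales the arrays to each other, which can remove a shift common to all transcripts. Of 25206 probe sets, named by gene number, an annotation table named 23185, 1 gene each; the other 2021 are unnamed and entered only an alternative fit over all probe sets.

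The groups were compared with limma 3.58.1 in R 4.3.3 (lmFit, eBayes, no trend, no filter) over the 23185 genes, with groups from the sample titles; all tests were two-sided. The fit was tested on simulated data. The members and lists were chosen with earlier results of these data known, so no list was tested as a set. Named were the members, Myc, list genes that passed or else had the smallest p, neighbours, and the 5 genes most like Lta; further examples were picked with their values in view. Gene order, names and promoters came from RefSeq tables (GRCm38.p6). Same-numbered arrays did not deviate together (correlations −0.070, −0.012 and −0.017), so no block was used. Figures were drawn with matplotlib 3.10.9. With 3 arrays per group, their number limits the precision.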

Additional observations from a re-analysis of the deposited data

How the results depend on the processing

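Over all genes, the counts past the threshold were 59 higher and 46 lower as reported, 0 and 0 with a replicate block, 162 and 208 under an intensity trend in the prior variance, and 204 and 345 after the filter on dim genes (mean level under the median); without one array each they ranged from 0 to 2 higher and from 0 to 1 lower in limma, with 1311 to 1572 higher and 1454 to 1688 lower at an unadjusted p under 0.05 (1486 and 1560 with the block). Of the members other than Lta, the count higher was 0 as reported and 1, Tnf, under the intensity trend, array weights, median centring, cyclic loess and the filter on dim genes; it was 0 with each array left out, and the count lower was 0 under every setting run. Tnf had limma's adjusted p = 0.180 with the replicate block. The pathway lists held 0 higher and 1 lower as reported, 1 higher under the intensity trend, 0 lower with the replicate block, 3 lower after that filter, and 0 in both directions with each array left out. Myc passed only after that filter (difference 0.36, limma's adjusted p = 0.0487); with each array left out its difference ranged from 0.31 to 0.43. Among the members, Ltbr changed sign without knockout-labelled replicate 1 and Tnfrsf1a without control replicate 2; with each array left out their differences ranged from −0.042 to 0.19 and from −0.29 to 0.020. Tnfrsf1a lay below the filter on dim genes and has no value there. Signal over background limits Tnfrsf1a and Ltb, and 3 arrays per group limit every call.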
